A study of Saccharomyces cerevisiae with 4 samples.

Results

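Spo11 breaks were mapped at the 33 proteasome genes of budding yeast, of 6002 protein-coding genes, of which 5648 had a usable gap on the 5′ side and are called all genes here. The members were the 14 core particle genes, 10 of the base, 8 of the lid and RPN4, the gene of their transcription factor. They were listed by name and not ranked by a measured value, but earlier results of these data were known. For each, the 5′ ends of uniquely mapped Spo11 oligos were counted in the 5′ gap, the stretch between the gene's start and the next protein-coding gene, and in the open reading frame (ORF). Counts are given as RPM, oligos per 1000000 mapped oligos.

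The proteasome degrades proteins tagged with ubiquitin. Its core particle is a barrel of stacked α and β rings that holds the proteolytic sites inside, the base is a ring of ATPases that unfolds substrates and feeds them in, and the lid removes the ubiquitin. In yeast, Rpn4 activates most of these genes through the proteasome-associated control element in their promoters, and Rpn4 is itself destroyed by the proteasome. Spo11 starts meiotic recombination by cutting both strands of DNA and leaves bound to a short oligo, whose 5′ end marks the cut. In yeast such cuts fall mostly in open promoter chromatin.

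All oligos came from diploids of the SK1 background after 4 h in sporulation medium at 30 °C. The cells were homozygous for tagged SPO11-HA3-His6::kanMX, which both cultures carried. They were also homozygous for ho::LYS2, lys2 and ura3, for leu2::hisG together with his4X::LEU2, and for arg4-Nsp and nuc1∆::LEU2; none of these loci is a proteasome gene. Culture 1 gave 3 technical datasets and culture 2, grown separately, gave 1. Both deposited files pool them, so no spread between cultures could be measured, and no test was run. Poisson intervals cover counting error only. Wilson intervals around shares of genes treat the genes as independent draws. The lists are fixed and genes are not replicates, so these intervals are description only. The list held 2024944 oligos from 4 sequencing runs of 395612 to 587674 reads, which no label ties to a culture.

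Most proteasome genes had a break hotspot on their 5′ side, a stretch where the smoothed oligo density was at least 2.3 times the genome mean. A hotspot summit lay in the 5′ gap of 28 of 33 members (84.8%, 95% Wilson interval 69.1 to 93.4%), against 71.3% of all genes. Over the whole gap, however, the members' median was 60.2 RPM (range 11.9 to 694), against 94.8 RPM for all genes (quartiles 30.6 and 237), and 14 of 33 members lay above that median. Raising the hotspot threshold from 2.3 to 4.6 times the genome mean left 15 of 33 members (45.5%), against 57.4% of all genes, so the members' share was above that of all genes at the lower threshold and below it at the higher. Counting each position and strand once, 33 of 33 members had a hotspot, against 82.0% of all genes. The median hotspot of the genome held 241 oligos and was 211 bp wide. Of the 28 proteasome hotspots, 15 held fewer oligos than that median, about the share that a median sets by definition. Also 15 of the 28 were narrower than 200 bp, a share that was not computed over all hotspots. The proteasome gaps together held 10304 oligos, 0.509% of the total, in 18841 bp, a density of 270.1 RPM per kb, against 338 RPM per kb over the gaps of all genes, where a shared gap counts once for each of its genes, and a genome mean of 83.3. The 3 strongest gaps, those of PUP3, RPN6 and RPT5, held 35.9% of these oligos.

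**Figure D1:**
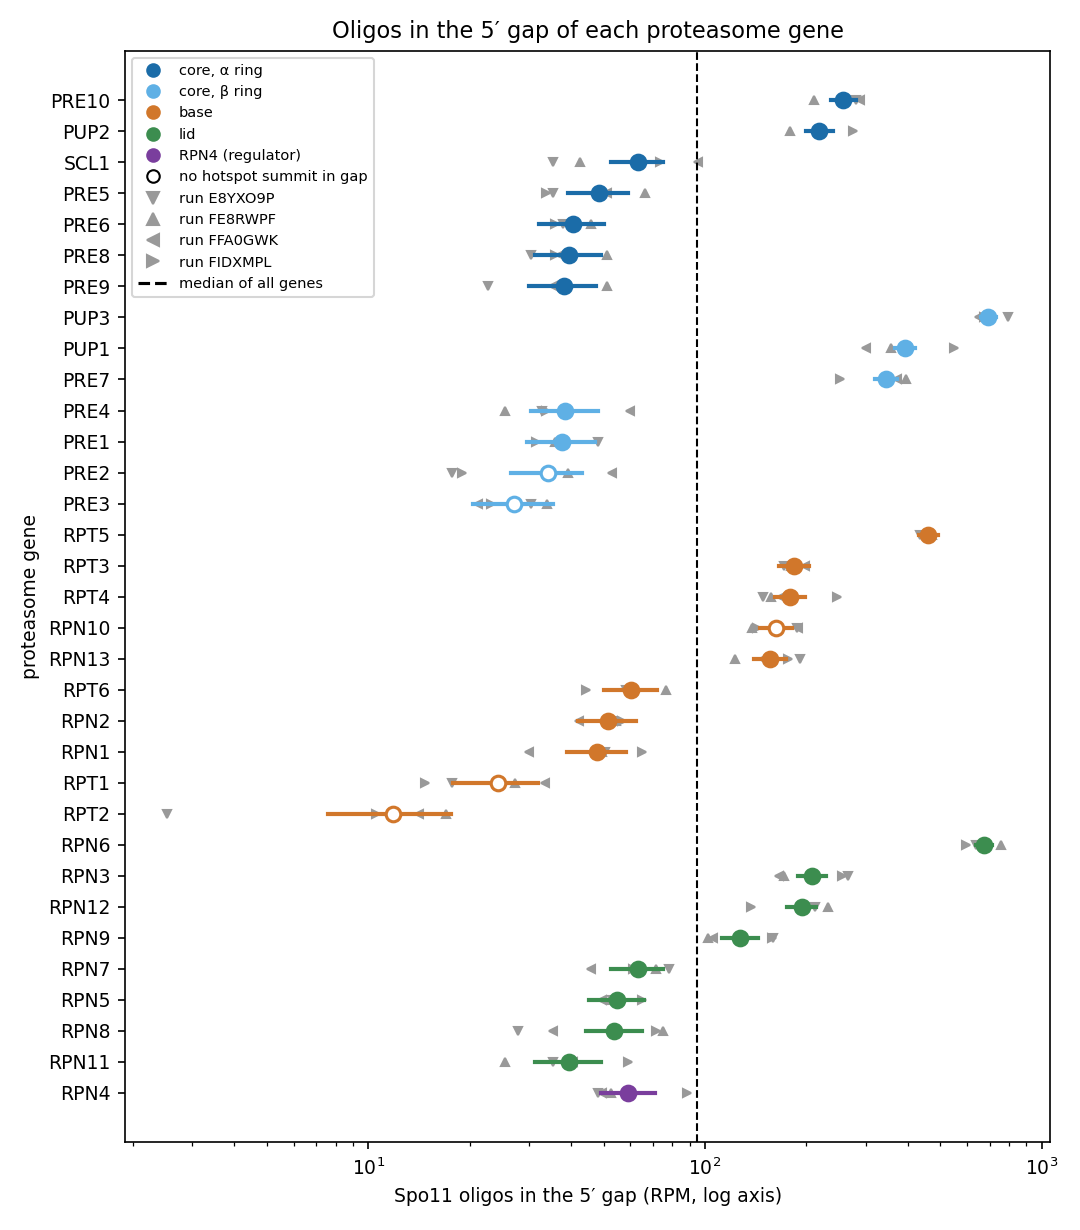
Oligos in the 5′ gap of each of the 33 proteasome genes (RPM, log axis), grouped by sub-complex and sorted within each. Large circles are all runs together with 95% exact Poisson intervals, open where no hotspot summit lay in the gap, grey triangles are the 4 runs, and the dashed line is the median of all genes, 94.8 RPM. The members run from 11.9 RPM at RPT2 to 694 RPM at PUP3, and 9 of the 14 core particle genes lie below 100 RPM.

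The 5′ gap of 21 members was shared with a divergently transcribed neighbour, and that of 12 members followed the end of a tandem gene. Divergent members had a median of 63.2 RPM, against 142 RPM for all divergent genes, and 17 of 21 held a hotspot, against 78.6% of all divergent genes. Tandem members had a median of 49.6 RPM, against 63.7 RPM for all tandem genes, and 11 of 12 held a hotspot, against 63.4%. Each of the 5 strongest members was divergent, so its oligos lay on the 5′ side of a second gene as well. No gap served a pair of proteasome genes. Across the 33 genes, gap length and gap RPM were weakly related (Spearman rho = 0.21; 0.35 over 5648 genes), and genes that share a gap are not independent points.

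Over the whole gap, the core particle genes fell into a strong and a weak set with no member between 63.2 and 219 RPM. Within 300 bp of the start this split was not seen. There PUP2 had 10.4 RPM, PUP3 96.8, PRE10 119, PRE7 127 and PUP1 340.3, and SCL1 of the weak set 63.2. The core median was 44.4 RPM, midway between PRE6 and PRE5. A hotspot lay in 12 of 14 core gaps, against 71.3% of all genes. At the threshold of 4.6 times the mean it was 6 of 14, against 57.4%. In the α ring, the outer ring that gates entry to the barrel, PRE10 and PUP2 were high and the other 5 genes lay between 38.0 and 63.2 RPM. PRE10, the gene of subunit α7, had 522 oligos (258 RPM, 95% exact Poisson interval 236 to 281) in a gap of 1475 bp after PIP2, an activator of genes for fatty acid breakdown. Its 4 runs, in the order E8YXO9P, FE8RWPF, FFA0GWK and FIDXMPL used throughout, gave 281, 211, 287.8 and 261 RPM, with FE8RWPF lowest. PUP2, of α5, had 443 oligos (219 RPM, 199 to 240.1) in 1786 bp shared with the enolase gene ENO1, and 219.9, 179, 212 and 276 RPM in the runs, with FIDXMPL highest. Its hotspot summit lay 1214 bp before the PUP2 start, nearer to ENO1, and 4.74% of the oligos in the gap were within 300 bp of PUP2.

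The weaker α ring genes had narrow hotspots. SCL1, of α1, had 128 oligos (63.2 RPM, 52.7 to 75.2) beside MPO1, and its runs gave 35.4, 42.5, 95.4 and 73.6 RPM, the highest in FFA0GWK. PRE5, of α6, had 48.4 RPM, with the summit 303 bp before its start and nearer to its neighbour TGL3, a lipase gene. PRE6 (α4) had 40.5 RPM, PRE8 (α2) had 80 oligos (39.5 RPM, 31.3 to 49.2) after RPM2, and PRE9 (α3), the α subunit that yeast can live without, had 77 (38.0 RPM, 30.0 to 47.5) after CAF130. The counting intervals of these 3 genes overlapped, and their hotspots were 87, 88 and 97 bp wide.

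The β ring, which holds the proteolytic sites, had the highest and the lowest core values. PUP3, of β3, had 1406 oligos in 633 bp (694 RPM, 658.5 to 732), and its runs gave 796, 682, 653 and 673 RPM. The run E8YXO9P was highest, and the hotspot of PUP3 over all runs ranked 290 of 3626 by oligos. Within 300 bp of the PUP3 start lay 13.9% of the oligos, 96.8 RPM. PUP1, of the trypsin-like subunit β2, had 796 oligos in 412 bp (393 RPM, 366 to 421) beside PET123, a mitochondrial ribosomal protein gene. Its summit lay 127 bp before PUP1, 86.6% of the oligos were within 300 bp, and a single top-strand position, XV 631870 in the coordinates of the map, held 140 of them (17.6%). The runs of PUP1 were spread more widely than those of PUP3, at 394, 357, 300.2 and 547 RPM, with FIDXMPL highest. PRE7, of β6, had 700 oligos (346 RPM, 321 to 372) in 986 bp shared with the uridine permease gene FUI1, spread over a hotspot 676 bp wide. Its runs gave 346, 395, 373 and 252 RPM, with FIDXMPL lowest.

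The other β genes were weak. PRE4 (β7) had 38.5 RPM and PRE1 (β4) 37.5 RPM, and the hotspot of PRE1 held 27 oligos in 26 bp, just above the minimum of 25 bp. In the curated map the gap of PRE1 held 111 hits, against 76 oligos in the read list. With that map the core median was 51.6 RPM. PRE2, of the chymotrypsin-like subunit β5, had 69 oligos (34.1 RPM, 26.5 to 43.1) beside the ribosomal protein gene RPL11A and no hotspot. PRE3, of the caspase-like subunit β1, had 55 oligos (27.2 RPM, 20.5 to 35.4) beside OST1, of protein glycosylation, and no hotspot. The runs of PRE2 gave 17.7, 39.1, 53.0 and 18.9 RPM and those of PRE3 30.3, 34.0, 21.2 and 23.1 RPM, so each run left both genes below the median of all genes. The genes of the 3 proteolytic subunits, PRE3, PUP1 and PRE2, thus included both core members without a hotspot and the second strongest core gap.

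The base held the 2 weakest of the 33 genes and the third strongest. Its median was 108 RPM, a point midway between RPT6 at 60.2 and RPN13 at 156 RPM, with 5 genes above and 5 below. A hotspot lay in 7 of 10 base gaps (70%), close to the 71.3% of all genes. At the threshold of 4.6 times the mean it was 5 of 10, against 57.4%. Among the ATPases, RPT5 was highest with 932 oligos in 883 bp (460.3 RPM, 431 to 491) beside RPO31, of RNA polymerase III, and its runs stayed between 435 and 479.6 RPM. The oligos of RPT5 fell in 2 clusters, one within 300 bp of its start (215 RPM) and one around the summit, 458 bp before it. RPT3 had 373 oligos (184 RPM, 166 to 204) after SHE9, and the top-strand position IV 1261508 held 111 of them (29.8%), the largest share at a single position among the 33 gaps. The runs of RPT3 stayed between 172 and 198 RPM, as narrowly as those of RPT5. RPT4 had 363 oligos (179 RPM, 161 to 199) in 275 bp beside GCD1, a gene of translational control, and its runs gave 149, 157, 168 and 246 RPM, with FIDXMPL highest. RPT6 had 60.2 RPM beside ALG13.

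RPT1 and RPT2 were the lowest of all 33. RPT1 had 49 oligos (24.2 RPM, 17.9 to 32.0) in 351 bp after AVT3 and no hotspot, with 17.7, 27.2, 33.6 and 14.7 RPM in the runs. RPT2 had 24 oligos (11.9 RPM, 7.59 to 17.6) in 1222 bp shared with YDL007C-A, with 2.53, 17.0, 14.1 and 10.5 RPM in the runs, and was below RPT1 beyond their counting intervals in the read list. In the authors' curated map of hits, however, the gaps of RPT1 and RPT2 held 49 hits each, so this order was not seen there. A tRNA gene lies 193 bp before RPT2, and 91.7% of the listed oligos in the gap, but 40.8% of the curated hits, were within 300 bp of RPT2. In the read list, density in this gap was 9.70 RPM per kb, against 3.01 RPM per kb in the RPT2 ORF. Their ratio of 3.23 was the lowest of the 33 genes in that list. It was not computed for the curated map, where the gap held 49 hits and the ORF 7.

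The non-ATPase base genes were RPN1 and RPN2, of large scaffold subunits, and the ubiquitin receptor genes RPN10 and RPN13. RPN1 had 97 oligos (47.9 RPM, 38.8 to 58.4) and RPN2 had 104 (51.4 RPM, 42.0 to 62.2), both in tandem gaps. RPN13 had 316 oligos (156 RPM, 139 to 174) beside DCK1. RPN10 had 330 oligos (163 RPM, 146 to 181) in 219 bp, the shortest gap of the 33 and 744 RPM per kb, and yet no summit. The hotspot there (VIII, 498451 to 499066, 887 oligos) reached into the gap, but its summit lay 241 bp beyond it, within the neighbour NBL1. Counted by overlap of 1 bp or more in place of the summit, 29 of 33 members had a hotspot, against 74.9% of all genes. Without RPN10 and RPN13 the base median was 55.8 RPM.

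All 8 listed lid genes held a hotspot, against 71.3% of all genes. At the threshold of 4.6 times the mean 4 of 8 did, against 57.4%. SEM1, of a small lid subunit outside the list, had 22.2 RPM and no hotspot. The median of the 8 listed genes was 95.3 RPM, midway between RPN7 and RPN9. RPN6, of a scaffold subunit, had 1365 oligos in 363 bp (674 RPM, 639 to 711) beside PMT1, of protein O-mannosylation. At 1857 RPM per kb it had the highest gap density of the 33 and ranked above 97.1% of all genes, and its runs gave 639.5, 756, 679.8 and 595 RPM. RPN6 oligos fell in clusters at both sides of the gap, 99.3% of them within 300 bp of its start, and a bottom-strand position, IV 286813, held 180 of them. RPN3 had 421 oligos (208 RPM, 189 to 229) after GPA2, a G protein gene, with 28.3% of them at the bottom-strand position V 196820. The runs of RPN3 gave 265, 172, 166 and 255 RPM, so those of E8YXO9P and FIDXMPL stood above the other pair. RPN12 had 392 oligos (194 RPM, 175 to 214) in 701 bp shared with the coatomer gene RET2, in a cluster near each gene, and 212, 231, 189 and 137 RPM in the runs. PRE4 lies on the other side of RET2, in its own gap, with 38.5 RPM.

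The remaining lid genes were RPN9 with 127 RPM (112 to 144) after SNX41, RPN7 with 63.2 RPM beside YTH1, RPN5 with 54.8 beside NOP14, RPN8 with 53.8 beside GPN2 and RPN11 with 39.5 beside YPI1. RPN11 encodes the lid's deubiquitinase. It had 80 oligos (31.3 to 49.2 RPM), and RPN8, its partner subunit, had 109 (44.2 to 64.9 RPM). The runs of RPN8 gave 27.8, 74.9, 35.3 and 71.5 RPM and those of RPN11 35.4, 25.5, 40.6 and 58.9 RPM, in no shared order. The intervals of RPN5, RPN7 and RPN8 overlapped.

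RPN4 itself had 120 oligos in the 954 bp after OSH2 (59.3 RPM, 49.1 to 70.9), with 48.0, 52.8, 49.4 and 88.4 RPM in the runs. Its hotspot (IV, 416990 to 417173) held 99 oligos with the summit 317 bp before the start. Within 300 bp of the start lay 18.3% of its oligos, 10.9 RPM. In that stretch RPN4 was below all members but PUP2, at 10.4 RPM, and equal to RPT2.

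**Figure D2:**
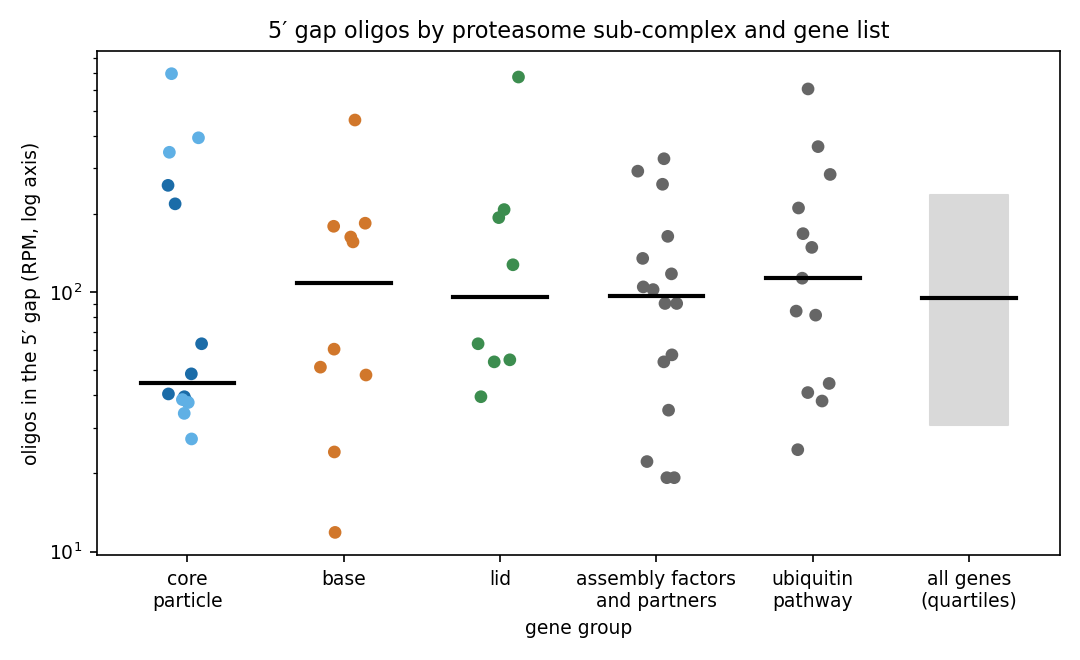
Oligos in the 5′ gap (RPM, log axis) for core particle, base and lid genes, for 16 assembly factors and partners and for 13 ubiquitin pathway genes, 1 point a gene, with black lines at the medians. The grey box spans the quartiles of 5648 genes, 30.6 to 237 RPM. The medians of core particle, base and lid genes are 44.4, 108 and 95.3 RPM, and the points of each overlap those of the others.

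The medians of core, base and lid genes therefore differed, while their ranges overlapped: 27.2 to 694 RPM in the core, 11.9 to 460.3 in the base and 39.5 to 674 in the lid. All lid values here are those of the 8 listed genes and leave out SEM1, at 22.2 RPM. Run by run, the core median was 36.7 to 56.5 RPM, the base median 99.5 to 104 RPM and the lid median 77.7 to 119 RPM, so the core was lowest in each of the 4 runs. Among divergent gaps alone the medians were 63.2 RPM for 9 core genes, 159.5 for 6 base genes and 59.0 for 6 lid genes, with the lid lowest, and among tandem gaps they were 38.5 RPM for 5 core, 49.6 for 4 base and 168 for 2 lid genes. Per kb of gap the medians were 129 RPM in the core, 339 in the base and 219 in the lid, against 200.6 RPM per kb for all genes. Pooled over the gaps of each complex, the densities were 224 RPM per kb in the core, 291 in the base and 455 in the lid. The lid was then highest, but RPN6 alone held 1365 of its 2864 gap oligos. With all genes moved 100 bp to the right the medians were 36.1 RPM in the core, 47.7 in the base and 70.4 in the lid. Base and lid thus changed places. With all genes moved to the left the medians were 42.7, 93.6 and 67.4 RPM, and the base stayed above the lid. The core was lowest after either move. In the order of all 33 genes by gap RPM, 5 of 32 neighbouring pairs had counting intervals that did not overlap: RPN6 over RPT5, RPT5 over PUP1, PRE7 over PRE10, RPN9 over the genes at 63.2 RPM, and, in the read list but not in the curated map, RPT1 over RPT2.

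Breaks were found close to the start of nearly every member, although in 7 of 33 gaps under 50% of the oligos lay within 300 bp of it. Each of the 3 bins of 50 bp between 200 and 50 bp before the start held oligos in 32 of 33 genes, and the fullest bin of the stretch from 1000 bp before to 500 bp after the start was one of those 3 in 22 genes. The median of the 33 genes was 18.3 RPM in the bin from 200 to 150 bp before the start, 9.88 in the next and 6.91 from 100 to 50 bp. It was 0.494 RPM in the last 50 bp before the start and 0 in each bin after it. The hotspot summit lay a median of 161 bp before the start, and 21 of 28 summits were between 90 and 200 bp. These distances follow a gene table whose build may differ from that of the map, which is not given. Its register around the members was within 55 bp of the map. Counts by bin, summit distance and share within 300 bp were not made over all genes, so they do not set the members apart.

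**Figure D3:**
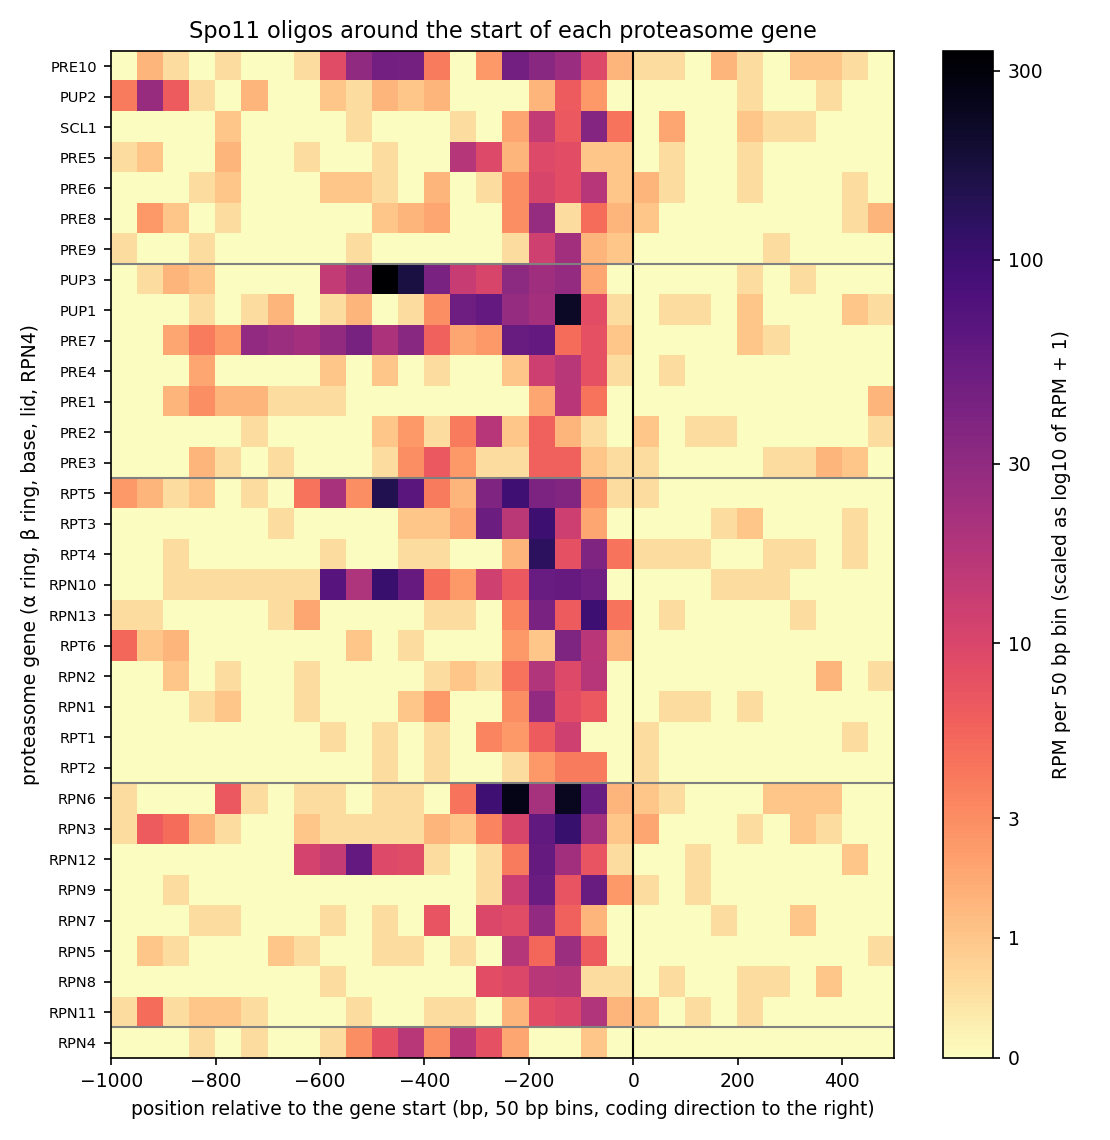
Oligos in 50 bp bins (RPM, colour on a log scale of RPM + 1) from 1000 bp before to 500 bp after the start of each of the 33 genes, the coding direction to the right and the start at the black line. Rows are grouped as α ring, β ring, base, lid and RPN4 and sorted by gap RPM. A column of filled bins between 200 and 50 bp before the start recurs in nearly all rows, weakly at PUP2 and RPN4, whose fullest bins lie farther away. PRE10, PUP3, PRE7, RPT5, RPN10 and RPN12 are among those with a second cluster farther away. That of PUP3 is the larger of its clusters, and that of RPN10 lies beyond its 5′ gap.

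Restricted to the 300 bp of gap next to the start, the members' median was slightly above that of all genes. It was 54.8 RPM (range 10.4 to 669.6), against 48.4 RPM for all genes, and 19 of 33 lay above that median. Divergent members had 60.2 RPM there, against 61.7 for all divergent genes, and tandem members 43.2 RPM, against 36.1 for all tandem genes, so the tandem members alone lay above their own kind. The medians were 38.3 RPM in the core, 108 in the base and 74.1 in the lid. In this stretch 5 of 14 core genes, 7 of 10 base genes and 7 of 8 lid genes lay above the median of all genes. RPN6, PUP1 and RPT5 were then the highest members, at 669.6, 340.3 and 215 RPM. PUP3, first over the whole gap, had 96.8 RPM here. This stretch was chosen after the data were seen.

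Over the gaps together 52.5% of oligos were on the coding strand of the member (95% Wilson interval 51.5 to 53.4%), slightly above 50%. In single gaps the coding share ran from 28.5% at RPN3 (95% Wilson interval 24.4 to 32.99%) to 77.2% at RPT3 (72.7 to 81.2%). Its interval lay above 50% in 8 gaps and below it in 7. The same count was not made over all genes, and the intervals treat each oligo as independent, so it does not mark genes with a strand bias. At RPN3 and at RPT3 a single position held much of the total, as given above. It was on the strand opposite to the coding strand at RPN3 and on the coding strand at RPT3. Oligos of 1 position may be PCR copies, since no molecular identifiers mark them.

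Coding regions held few breaks. The 33 ORFs held 303 oligos in 36551 bp, 4.09 RPM per kb, and every member had between 1 and 25 oligos. The median was 3.43 RPM per kb, against 4.97 for all genes, and 24 of 33 members lay below that median. The core, base and lid medians were 3.82, 3.16 and 4.22 RPM per kb. PUP1 was highest with 15 oligos (9.42 RPM per kb), followed by RPN6 with 23 (8.70), PRE10 with 14 (7.97), RPN3 with 25 (7.85) and RPT3 with 20 (7.67). PRE4 and PRE9 had 1 oligo each and RPN4 had 2, from 0.617 to 0.636 RPM per kb. Gap density exceeded ORF density in all 33 genes, by a median factor of 55.0, against 33.2 over the 5382 genes with an oligo in the ORF. The share of all genes with a denser gap than ORF was not computed, so this count does not set the members apart. The factor was highest at PUP3 (458) and RPN10 (405), whose ORFs held 3 oligos each, so the factor has a wide counting error there.

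**Figure D4:**
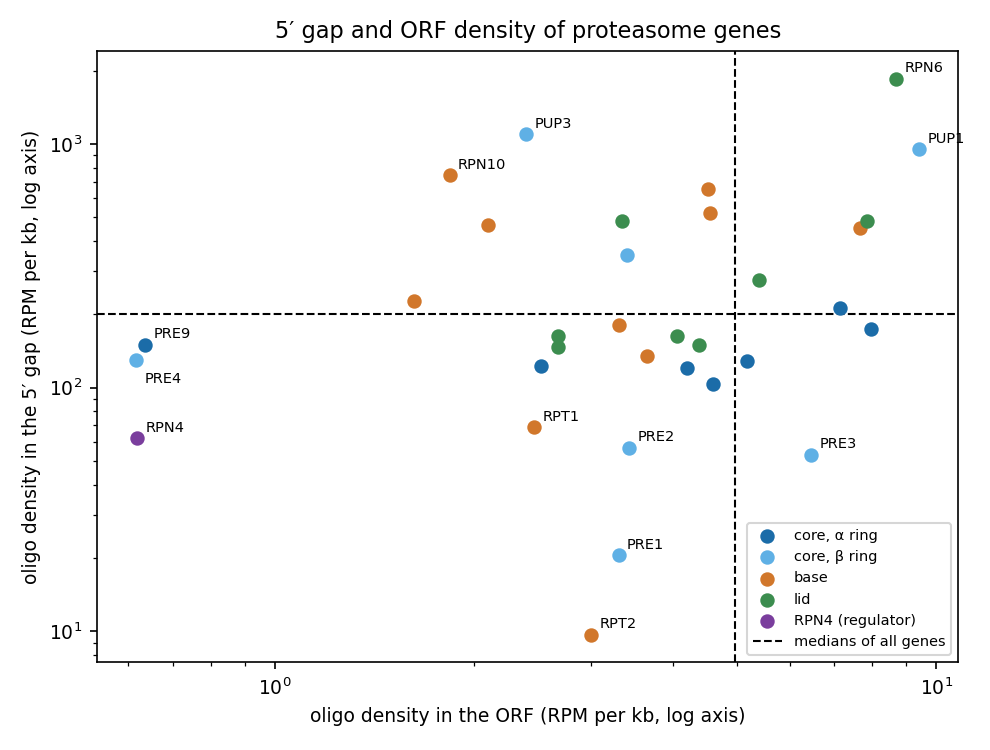
Density in the 5′ gap against density in the ORF (RPM per kb, both axes log) for the 33 proteasome genes, coloured by sub-complex, with dashed lines at the medians of all genes, 200.6 RPM per kb in the gap and 4.97 in the ORF. All ORF values lie between 0.617 and 9.42 RPM per kb, whereas gap values run from 9.70 at RPT2 to 1857 at RPN6.

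Genes that build or serve the proteasome had medians above the 60.2 RPM of the 33 members. Of 16 assembly factors and partners, 13 had a hotspot in the 5′ gap (81.3%, 95% Wilson interval 57.0 to 93.4%), against 71.3% of all genes, and their median was 96.3 RPM, against 94.8 RPM for all genes. UMP1, a chaperone of core assembly, was highest at 326 RPM, followed by POC4 (292), another such chaperone, and TMA17 (260.3), a chaperone of the base. BLM10, of a core activator, PBA1 and SEM1, which encodes a small lid subunit that is not among the 33, had 19.3, 19.3 and 22.2 RPM and no hotspot. Of 13 ubiquitin pathway genes, 12 had a hotspot (92.3%, 66.7 to 98.6%), against the same 71.3% of all genes, with a median of 113 RPM, against 94.8. UBA1, of the ubiquitin-activating enzyme, was highest at 606 RPM beside TRP3, and UBI4, which encodes polyubiquitin, had 363 RPM. PNG1, of a peptide N-glycanase, had 24.7 RPM and no hotspot. DSK2, of a ubiquitin shuttle, had 153 oligos in its ORF (67.3 RPM per kb), above every one of the 33 proteasome ORFs.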

How the data were processed

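Per the file headers, the authors deposited a list of reads uniquely mapped to S288C, each with start, end, strand and a score, and a curated map of raw hit counts that sums both strands at each position. The deposited score was not used. The aligner and the build were not given in the sources used here, nor was any normalisation. The members and lists were chosen with earlier results of these data known.

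The 5′ end was the listed start on the top strand and the listed end on the bottom strand. Hotspots were runs of smoothed 5′ ends (Hann window of 201 bp) at 2.3 times the mean over 12 Mb or more, merged at gaps of 200 bp or less, at least 25 bp wide and with at least 10 RPM. Gene names, spans and neighbours came from the RefSeq table of assembly R64, whose coordinates are not printed. To check the table against the map, the offset at which ORFs held fewest oligos was found in windows of 50 kb, and none was applied: it was within 100 bp in 228 of 234 windows on 15 chromosomes (median −5 bp) and in 4 of 13 on XI. Genes in the other windows were left out. Around the members the shift was −55 to 55 bp, and 5 bp at RPT1 on XI. UFD4, also on XI, was left out. A neighbouring gene is not reported here. Counts were made with Python 3.11.15, numpy 2.4.6, pandas 2.3.3 and scipy 1.17.1 and checked on planted oligos. Full values are given for RPN4, for the 3 highest and 2 lowest gaps of each ring, the base and the lid, and for the highest ORF of each. Intervals are 95% Wilson or exact Poisson intervals. Runs are the first 7 characters of read names, listed in the order E8YXO9P, FE8RWPF, FFA0GWK and FIDXMPL.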

Additional observations from a re-analysis of the deposited data

Results flagged for a closer look

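The curated map, which served as an alternative, held hits in the 5′ gaps of PRE1 and RPT2 where the list has none at the same position, beyond the 3 that a count of 0 allows. In the gap of PRE1 there were 35 such hits at 17 positions (V, 177355 to 177667), 168 to 480 bp before the start. In the gap of RPT2 there were 27 at 15 positions (IV, 436915 to 437108), 939 to 1132 bp before the start. With them the gap of PRE1 held 111 hits in the curated map and 76 oligos in the list, and that of RPT2 held 49 and 24. Each of these gaps holds a tRNA gene, and no other proteasome gap does, but none of the hits lay within 100 bp of it. Why they are missing from the list was not tested.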

How the results depend on the processing

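Of 68 recomputed values, 54 moved by less than counting error or, for the hotspot count, less than 1.5 times; 14 did not. The stricter threshold gave 15 members with a hotspot. Counting each position and strand once, with RPM per 1000000 of these, gave gap medians of 87.3 RPM in the core and 113 in the lid, and ORF medians of 13.6, 11.0 and 15.6 RPM per kb in core, base and lid. Moving all genes right by 100 bp gave gap medians of 47.7 RPM in the base and 70.4 in the lid, and ORF medians of 9.75 in the core and 8.82 in the base. Moving them left by 100 bp gave 93.6 RPM in the base, 67.4 in the lid and 17.6 RPM per kb in lid ORFs. Leaving out RPN10 and RPN13 gave a base median of 55.8 RPM. The cause was not tested. Leaving out each sequencing run gave 27 to 29 members with a hotspot. The stretch of 300 bp and the overlap count were chosen after the data were seen. No paired analysis was possible because both files pool the datasets.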
